A study of Mus musculus with 3 samples.

Results

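The barcodes described here carry the transcripts of heart muscle cells and come from libraries sorted for intrinsic cardiac neurons of the mouse atria. A barcode, the tag of 1 droplet, was a member when it held at least 1000 UMIs (unique molecular identifiers, counted as RNA molecules), at least 500 genes and at most 20% mitochondrial UMIs. It also had to show at least 5 of the 7 genes Myh6, Tnnt2, Actc1, Myl7, Ttn, Tnni3 and Myl4, and at least 20 UMIs of Myl7 and Myh6 together per 10000. These rules found 75 of the 4653 barcodes kept from the anterior and posterior libraries, 44 anterior and 31 posterior, and 1 of 2438 in the mixed library. Of the 75, 33 also held the neuron genes Snap25, Prph and Stmn2 at 20 or more UMIs per 10000 together, and 42 did not. The sets with and without neuron genes are described apart. Because the members were chosen by these counts, their marker levels are a description and no test was made of them.

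Atrial cardiomyocytes contract through sarcomeres built on the heavy chain encoded by Myh6 and the atrial light chains Myl7 and Myl4. They also work as endocrine cells that store and release atrial natriuretic peptide, the product of Nppa. The ganglia of the intrinsic cardiac nervous system lie in the fat and connective tissue against the atrial wall, and their cholinergic neurons act on neighbouring muscle through the muscarinic receptor encoded by Chrm2 and the potassium channel subunits encoded by Kcnj3 and Kcnj5.

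The study profiled dissociated atrial tissue by single-cell RNA sequencing with the 10x Genomics 3′ V3 kit. All mice carried Baf53b-cre and a lox-GFP reporter; Baf53b is another name of Actl6b, whose promoter is active in neurons. The anterior section came from mice labelled 3 months old, the posterior section from mice labelled 4 months old, and the mixed library from mice labelled 2 months old, with both sexes in each. The protocol names 10 mice and a fluorescence-activated sort, and tissues were pooled. Each region has 1 library, so region, age and library cannot be told apart, no p-value is given between libraries, and every interval below covers counting error only.

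The anterior matrix held 55329380 UMIs, the posterior 86391988 and the mixed 119825307. The size and mitochondrial limits kept 2029 of 2256 anterior barcodes, 2624 of 3276 posterior and 2438 of 2829 mixed. Their median depth was 25028, 18399 and 51078.5 UMIs in the same order of libraries. Neuron barcodes, those at or above the limit on the 3 neuron genes that were not cardiomyocyte members, numbered 1583 anterior, 1872 posterior and 2045 mixed. The anterior and posterior matrices shared 3 barcodes, the anterior and mixed matrices 2, and the posterior and mixed matrices 3. Of these shared barcodes, 1 was a posterior cardiomyocyte member.

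Cardiomyocyte barcodes made up 2.17% of the kept anterior barcodes (exact Clopper-Pearson 95% interval 1.58 to 2.90) and 1.18% of the posterior ones (0.804 to 1.67). In the mixed library the single member was 0.0410% (0.00104 to 0.228). Neuron genes were held by 15 of the 44 anterior members (34.1%, 20.5 to 49.9) and 18 of the 31 posterior members (58.1%, 39.1 to 75.5), so these intervals overlapped. The mixed member did not hold them.

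The limit on Myl7 and Myh6 fell in a narrow gap. The lowest anterior member had 23.5 UMIs per 10000 and the lowest posterior one 28.3, while the highest barcode with 5 or more markers that missed the limit had 17.1 and 19.4. In all, 56 anterior and 44 posterior kept barcodes showed 5 or more of the markers below that limit. Between 20 and 40 Myl7 and Myh6 UMIs per 10000 stood 8 anterior and 2 posterior members. The gap at the neuron gene limit was narrower than this one in the posterior library and wider in the anterior one. The lowest barcode with neuron genes had 27.4 among anterior members and 20.5 among posterior ones, and the highest barcode without them 15.6 and 15.5. Between 10 and 40 neuron UMIs per 10000 stood 4 anterior but 14 posterior members.

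**Figure D1:**
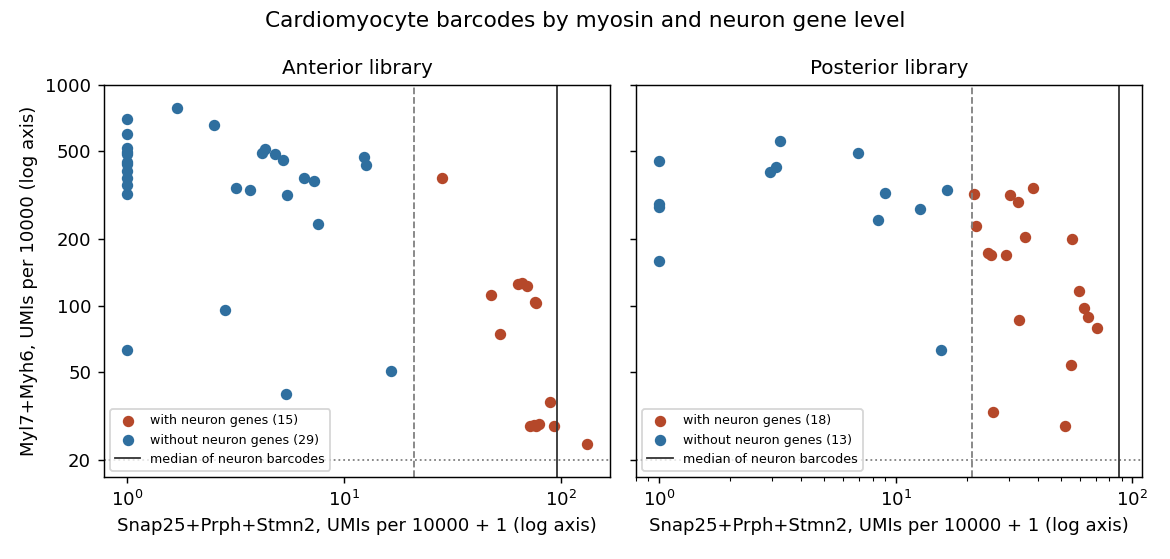
Each point is an anterior (left) or posterior (right) cardiomyocyte barcode, placed by its Snap25, Prph and Stmn2 UMIs per 10000 plus 1 and by its Myl7 and Myh6 UMIs per 10000, both on log axes; dashed and dotted lines mark the limits of 20 and the solid line the median of neuron barcodes. Barcodes with neuron genes reach 132 neuron UMIs per 10000 in the anterior and 70.1 in the posterior panel, and those without lie at 15.6 or below.

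Myl7, the atrial regulatory light chain, gave the largest summed counts of the markers in the sets without neuron genes. Anterior barcodes with neuron genes had 12.4 to 220 UMIs per 10000 (median 51.4) and posterior ones 16.4 to 266 (median 109). Anterior barcodes without neuron genes had 0 to 689 (median 257) and posterior ones 14.5 to 330 (median 219). The ranges overlapped in both libraries, and the median was lower with neuron genes in both. Of the 29 anterior barcodes without neuron genes, 2 had no Myl7 UMI.

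Myh6, the fast myosin heavy chain of the adult mouse heart, had a median of 16.6 UMIs per 10000 (2.19 to 160) in anterior barcodes with neuron genes and 136 (39.9 to 289) in those without. Its posterior medians were 33.1 (0 to 126) with neuron genes and 118 (0 to 382) without. Tnnt2, the cardiac troponin T that anchors the troponin complex to the thin filament, had medians of 16.1 (4.70 to 120) with and 88.7 (48.6 to 241) without neuron genes in the anterior library. The posterior medians of Tnnt2 were 60.5 (5.67 to 280) with and 95.3 (40.3 to 161) without. Tnnt2 was above 0 in every one of the 75 members.

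Nppa varied widely from barcode to barcode. Its anterior values ran from 0.348 to 678 UMIs per 10000 (median 28.8) with neuron genes and from 0 to 846 (median 145) without. Posterior values ran from 0 to 358 (median 106) with and from 0 to 919 (median 196) without neuron genes. No Nppa UMI was found in 3 posterior barcodes with neuron genes, in 6 anterior barcodes without and in 1 posterior barcode without. Sln, which encodes sarcolipin, the atrial inhibitor of the calcium pump, had medians of 7.76 with and 39.3 without neuron genes in the anterior library, and 29.5 with and 58.0 without in the posterior.

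**Figure D2:**
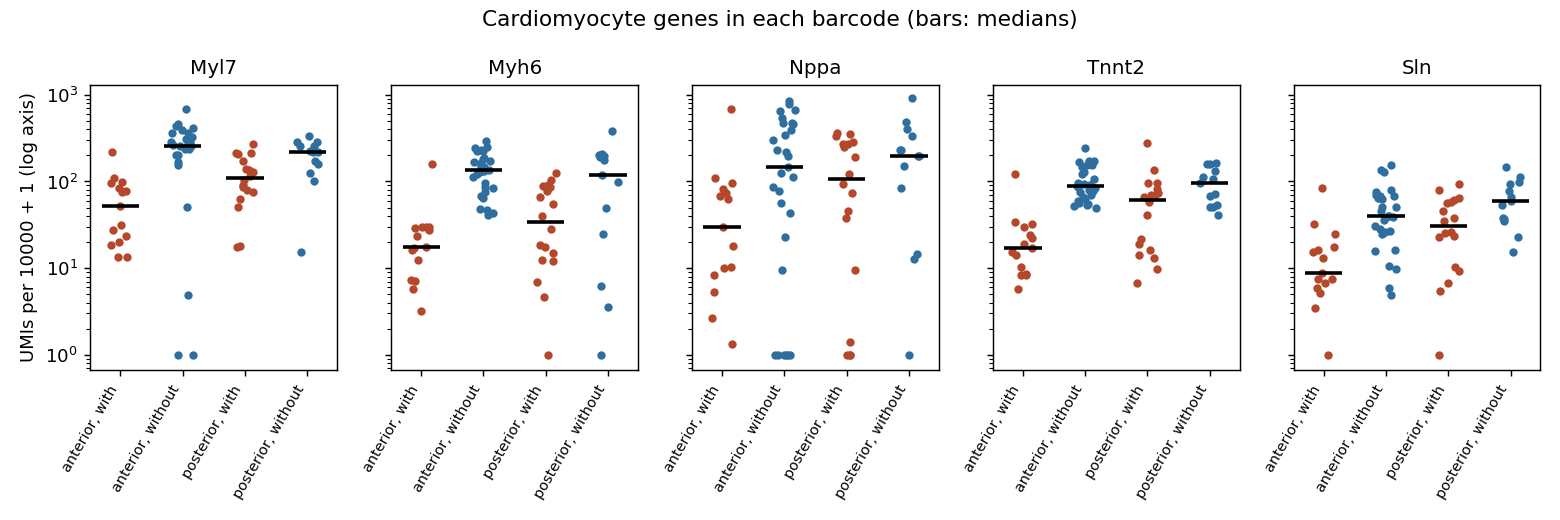
UMIs per 10000 plus 1, on a log axis, of Myl7, Myh6, Nppa, Tnnt2 and Sln in each anterior and posterior cardiomyocyte barcode with and without neuron genes; bars are medians and points at 1 have no UMI. The median Nppa is 28.8 and 106 per 10000 in the sets with neuron genes, against 145 and 196 in those without, and the points overlap.

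The start sites of the rule's 2 level genes and of Nppa are shown because these 3 genes were among the first 4 in the ranking of member genes that follows, in both libraries. The windows are the 250 bases before and 50 after each gene's start in RefSeq on GRCm38.p6, written 5′ to 3′ on the gene's own strand. Capitals mark matches to a CArG box (the serum response factor motif, by its name alone), CATTCC (TEA domain factors), GATAA (GATA factors) and TATAAA, which were searched with the MEF2 motif (by its name alone) on both strands, so that a match may be printed as its reverse complement. The Nppa window is chr4:148000472-148000771 on the plus strand, the Myl7 window chr11:5898733-5899032 on the minus strand and the Myh6 window chr14:54966558-54966857 on the minus strand.
Nppa: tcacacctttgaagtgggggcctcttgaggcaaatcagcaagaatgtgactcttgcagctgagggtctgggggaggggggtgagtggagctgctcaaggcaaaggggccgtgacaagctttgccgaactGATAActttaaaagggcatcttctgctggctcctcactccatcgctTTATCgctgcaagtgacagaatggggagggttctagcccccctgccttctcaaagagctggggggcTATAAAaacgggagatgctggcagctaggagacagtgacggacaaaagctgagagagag
Myl7: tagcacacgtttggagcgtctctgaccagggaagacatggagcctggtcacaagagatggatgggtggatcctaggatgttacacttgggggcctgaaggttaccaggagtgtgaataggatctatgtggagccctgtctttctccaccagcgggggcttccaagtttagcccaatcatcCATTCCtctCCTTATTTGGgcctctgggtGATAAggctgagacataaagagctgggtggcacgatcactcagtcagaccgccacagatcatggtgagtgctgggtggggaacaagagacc
Myh6: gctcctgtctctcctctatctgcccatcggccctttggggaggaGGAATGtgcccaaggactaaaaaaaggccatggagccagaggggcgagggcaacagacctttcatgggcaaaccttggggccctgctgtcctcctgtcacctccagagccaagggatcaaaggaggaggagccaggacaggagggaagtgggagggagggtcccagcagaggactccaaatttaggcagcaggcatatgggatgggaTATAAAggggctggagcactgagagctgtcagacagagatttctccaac
Among 32851 RefSeq promoter windows of the same length, 1.63% held the CArG box, 3.19% the MEF2 motif, 14.7% CATTCC, 25.4% GATAA and 13.6% TATAAA. The Nppa window held GATAA on both strands and TATAAA, the Myl7 window the CArG box, CATTCC and GATAA, and the Myh6 window CATTCC and TATAAA. None of the 3 windows held the MEF2 motif. A match is a run of letters and was not tested as a binding site.

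Genes were ranked by CPM, a gene's share of the summed UMIs on a scale of 1000000, in the members without neuron genes over all other kept barcodes of the library, with 10 CPM added to both. The rule used these cells, so the ranking describes them only. In the anterior library Myl7 had 30172 CPM against 19.6, Nppa 27106 against 20.3, Myh6 13732 against 5.32 and Tnnt2 9896 against 13.9 in the other barcodes. In the posterior library Myl7 had 21073 CPM, Nppa 18928 and Myh6 16308, the last against 5.0 in the other barcodes. The 20 leading genes of the 2 libraries shared 18. They held sarcomere genes (Ttn, Tnni3, Myl4, Actc1, Tnnc1, Tcap, Csrp3, Mybpc3), the calcium pump regulators Sln and Pln, the oxygen store Mb, the muscle form of a cytochrome oxidase subunit Cox6a2 and the stress-linked gene Ankrd1. Hamp, which encodes the iron regulator hepcidin, was also among them, with 137 anterior UMIs in 37.9% of the barcodes. Of these UMIs, 76 lay in 1 barcode and 34 in another. Des and Pgam2 were in the anterior list only, and Ckmt2 and Ckm, both creatine kinases, in the posterior list only.

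The label was checked against markers of the heart's chambers. Myl2, the ventricular light chain, had no UMI in any of the 76 members of the 3 libraries, and Irx4, a ventricular transcription factor, had none either. Myl3, a light chain of ventricle and slow muscle, had 14 UMIs in 4 anterior and 17 in 5 posterior barcodes without neuron genes. It was also found in members with neuron genes, at up to 4 UMIs in a posterior and 1 in an anterior barcode. Myh7, a myosin heavy chain of ventricle and slow muscle, had 1 UMI in 1 anterior and 1 in 1 posterior barcode without neuron genes. None of the 10 listed ventricular genes had enough counts for the comparison of regions below. Of atrial genes, Pam, which amidates peptide hormones and is abundant in atrial granules, had 477 UMIs in 29 of 29 anterior and 139 in 10 of 13 posterior barcodes without neuron genes. Mybphl, a myosin-binding protein of atria, had 97 and 24 UMIs, Dkk3 58 and 28, and Myl1 126 and 15. Tbx5, a transcription factor of the atria and conduction system, had 26 and 5. Kcna5, an atrial potassium channel gene, and Bmp10, a growth factor of right atrial myocardium, had none in these sets.

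Markers of other cells were sparse in the barcodes without neuron genes. None of 9 macrophage markers had a UMI there, and neither had the fibroblast genes Dcn, Lum and Pdgfra, the endothelial genes Pecam1 and Cdh5 or the glial factor Sox10. Tagln, a smooth muscle gene, had 22 UMIs in 2 anterior barcodes. Haemoglobin reached 298, 370 and 553 UMIs in 3 anterior barcodes without neuron genes, and the posterior ones had none. With neuron genes, 1 anterior barcode had 306 haemoglobin UMIs, and the summed glial list had 12 anterior and 23 posterior UMIs, the fibroblast list 8 and 17, and the macrophage list 1 and 1.

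Cardiac UMIs were also found in barcodes outside the members. At full depth a UMI of Myl7 or Myh6 was found in 40.6% of anterior, 33.2% of posterior and 2.54% of mixed neuron barcodes. Free RNA and doublets as their source were not tested. Thinned to 1000 UMIs each, Nppa was found in 73.3% of anterior and 77.8% of posterior members with neuron genes, 79.3% and 84.6% of members without them, and 3.28% and 3.79% of neuron barcodes. The neuron barcodes had median depths of 35099 and 48561 UMIs before thinning. The shares in both member sets were therefore far above the share in neurons at equal depth.

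The members were shallow beside the neurons. With neuron genes, the median was 3476 UMIs (2080 to 28776) for anterior and 1454 (1066 to 25016) for posterior members. Without neuron genes it was 3977 (1157 to 16351) and 1937 (1064 to 9482). The median number of genes was 1510 and 838.5 with neuron genes, and 1513 and 981 without. Members with neuron genes thus had a lower median depth than members without, and both lay far below the neuron medians of 35099 and 48561. In shallow barcodes few UMIs reach the neuron limit, so depth and the split are not independent. A posterior member of 1464 UMIs passed it on 3 Stmn2 UMIs, with 0 of Snap25 and 0 of Prph.

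Mitochondrial UMIs, a sign of RNA quality and of mitochondrial content, spread widely. Their share had a median of 0.321% (0.0248 to 15.2) with and 8.59% (0.0586 to 19.9) without neuron genes in the anterior library. In the posterior library the medians were 1.05% (0.159 to 14.3) with and 0.886% (0.482 to 16.7) without. Under 2% stood 9 of 15 anterior and 11 of 18 posterior barcodes with neuron genes, and 8 of 29 anterior and 8 of 13 posterior barcodes without. The highest values lay near the 20% limit, and 6 anterior, 13 posterior and 16 mixed barcodes met every other rule above it.

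**Figure D3:**
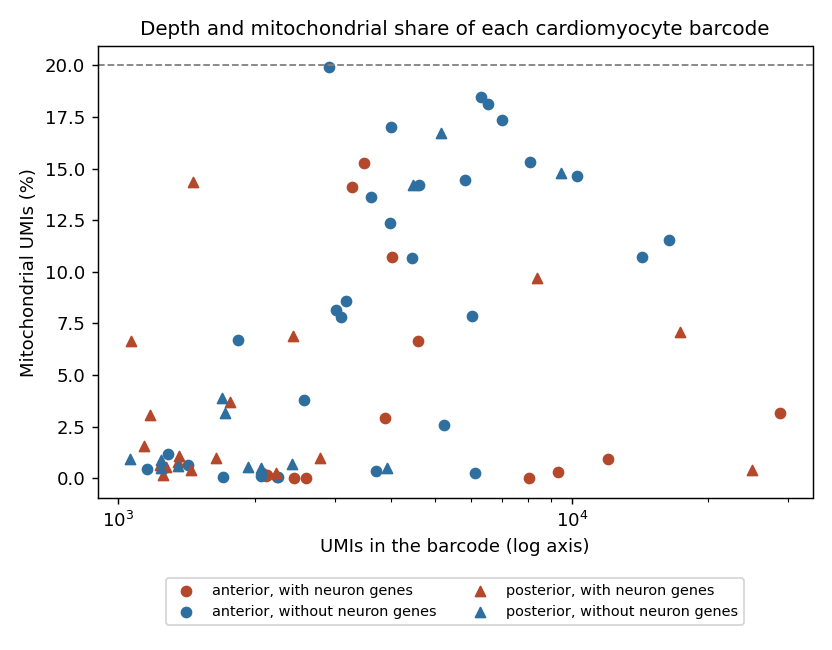
UMIs in each anterior (circles) and posterior (triangles) cardiomyocyte barcode, on a log axis, against its percent of mitochondrial UMIs; red points hold neuron genes, blue ones do not, and the dashed line is the 20% limit. Many points lie under 2%, among them 8 of 13 posterior and 8 of 29 anterior barcodes without neuron genes.

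In the posterior barcodes without neuron genes, Myh6, Ttn and Ryr2 were lower in sum where the mitochondrial share was under 2%. The 8 barcodes under 2% had 59.0 Myh6, 28.9 Ttn and 5.25 Ryr2 UMIs per 10000, and the 5 at or above 2% had 234, 174 and 24.9. Myl7 was close in both (220 and 205), and Tnnt2 (113 and 64.4) and Sln (83.3 and 53.7) were higher under 2%. The barcodes overlapped: Myh6 ranged from 0 to 195 per 10000 under 2% and from 175 to 382 at or above it. The anterior barcodes without neuron genes had 107 Myh6, 80.2 Ttn and 20.3 Ryr2 UMIs per 10000 under 2%, and 142, 98.2 and 10.3 at or above it.

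A few barcodes were rich in Malat1, a long RNA that stays in the nucleus. In 3 of 29 anterior and 1 of 13 posterior barcodes without neuron genes it exceeded 1000 UMIs per 10000. The 3 anterior barcodes had 588, 706 and 838 Malat1 UMIs, but only 0, 0 and 1 Myl7 UMIs, and 31, 30 and 65 Ttn UMIs. They had 182.8 Ttn and 1.45 Myl7 UMIs per 10000 when summed. The posterior one had 480 Malat1, 3 Myl7 and 25 Fos UMIs.

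The calcium cycle of the sarcoplasmic reticulum was well covered in members without neuron genes. Atp2a2, the calcium pump, had 1100 UMIs in the anterior and 321 in the posterior set. Ryr2, the release channel, had 167 UMIs in 27 of 29 and 64 in 9 of 13 barcodes. Pln had 213 and 47, the calcium buffer gene Casq2 63 and 23, its partner Trdn 75 and 23, and the sodium-calcium exchanger Slc8a1 60 and 10.

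Genes of the membrane and its autonomic control were sparser. Kcnj3, a subunit of the channel opened by acetylcholine, had 53 UMIs in 20 of 29 anterior and 17 in 7 of 13 posterior barcodes without neuron genes, and its partner Kcnj5 had 28 and 5. Kcnk3, a background potassium channel, had 46 and 9, and the connexin Gja1 31 and 4. Chrm2, the M2 receptor, had 40 UMIs in 17 and 15 in 6 barcodes. The neurons also carried Chrm2. Thinned to 1000 UMIs, it was found in 6 of 29 anterior members without neuron genes (20.7%, 7.99 to 39.7). In the posterior library it was 4 of 13 (30.8%, 9.09 to 61.4). The neuron shares of 12.5% and 18.9% lay inside these intervals. Adrb1, the main beta-adrenergic receptor of heart muscle, had 9 UMIs and 1 UMI. Npy1r, a receptor of neuropeptide Y, had 2 UMIs and 1 UMI.

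Secreted factors were led by Nppa. Nppb, the B-type natriuretic peptide, had 28 anterior UMIs in only 4 barcodes, of which 16 were in 1 barcode and 8 in another, and 3 posterior UMIs in 2 barcodes. Corin, the protease that activates the Nppa product, had 32 UMIs in 18 anterior and 14 in 6 posterior barcodes. Nrtn, which encodes neurturin, a growth factor of parasympathetic neurons, had 48 UMIs in 19 of 29 anterior and 14 in 8 of 13 posterior barcodes without neuron genes. That was 336 and 371 CPM. In the members with neuron genes Nrtn had 7 and 8 UMIs (76.9 and 108 CPM), and in neuron barcodes it had 3.04 and 1.93 CPM. Bdnf, Gdnf and Artn, other growth factors of neurons, had no UMI in the members without neuron genes.

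Energy genes were the next large group. Slc25a4, the carrier that exchanges ADP and ATP, had 923 and 249 UMIs in the anterior and posterior sets without neuron genes, and Cox6a2 had 901 and 174. Mb had 633 and 291, the fatty acid carrier Fabp3 430 and 88, and Lpl, which frees fatty acids from circulating lipid, 175 and 60. Cardiac transcription factors were detected at low counts, with Gata6 at 20 and 8, Tbx20 at 15 and 9, Hand2 at 18 and 5, Gata4 at 9 and 3 and Nkx2-5 at 11 and 0. The proliferation genes Mki67 and Top2a had no UMI in the sets without neuron genes.

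Most Hcn4 and Tbx3 UMIs of the anterior set without neuron genes lay in the 6 of 29 barcodes that lacked Nppa, a split chosen after the values were seen. Hcn4, the main pacemaker channel of the sinoatrial node, had 19 UMIs in 3 of these 6 barcodes and 0 in the 23 barcodes with Nppa. Tbx3, a repressor of the working atrial programme in conduction tissue, had 11 UMIs in 4 of the 6 and 4 UMIs in 4 of the 23. Cpne5, a calcium-dependent membrane-binding protein, had 8 UMIs in 3 of the 6 and 2 UMIs in the 23. Shox2, a transcription factor required for the sinoatrial node, had 3 UMIs in 2 of the 6 and 4 in the 23. The 6 barcodes summed to 24468 UMIs and the 23 to 118415.

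The same 6 barcodes kept the contractile genes. They had 287 Myl7, 157 Myh6, 142 Tnnt2 and 145 Ttn UMIs per 10000, against 305, 133, 90.1 and 85.5 in the 23 barcodes with Nppa. Sln was lower, at 18.8 against 71.4 per 10000. Of the 6, 1 barcode held 6 Hcn4 and 2 Tbx3 UMIs, and another held 12 Hcn4 and 7 Tbx3 UMIs. The last barcode with Hcn4 had 1 Hcn4 and 5 Cpne5 UMIs. No pacemaker-like name is given, because no marker list for such cells had been set. The posterior set without neuron genes had no Hcn4 UMI, 2 Tbx3 and 2 Shox2 UMIs over 13 barcodes.

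**Figure D4:**
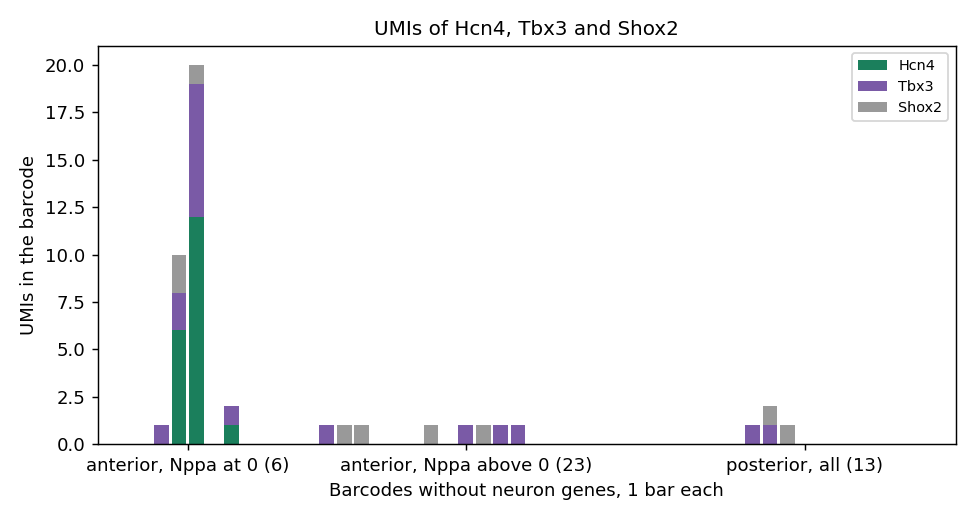
Stacked UMIs of Hcn4, Tbx3 and Shox2 in each cardiomyocyte barcode without neuron genes, 1 bar a barcode, in the anterior barcodes with no Nppa UMI (6), the anterior ones with Nppa (23) and the posterior ones (13). The 19 Hcn4 UMIs lie in 3 of the 6 barcodes with no Nppa, and 2 of these have the tallest bars.

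The single mixed member also lacked Nppa. It held 16441 UMIs, 3631 genes and 11.3% mitochondrial UMIs, with 857 Myl7, 104 Myh6 and 292 Tnnt2 UMIs and none of Nppa or Mb. Shox2 had 30 UMIs, Smoc2 23, Vsnl1 21, Tbx3 7, Isl1 4 and Hcn4 3. The smooth muscle gene Acta2, which is also made by immature and nodal cardiomyocytes, had 116 UMIs and Tagln 19. It is 1 barcode, and no value of it has a replicate.

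For the comparison of regions, UMIs of the members without neuron genes were summed per library and set as CPM, anterior over posterior, as log2 ratios with 1 CPM added. Of 582 genes with at least 50 CPM and 20 UMIs in the higher library, 80 differed past 2-fold, which is 13.7%. Of these, 72 (12.4%) were higher in the anterior set and 8 (1.37%) lower. The counting interval of the ratio held 1 for 48 of the 72 and for none of the 8, so most of the higher calls did not exceed counting error. The unequal sums, 142883 anterior and 37774 posterior UMIs, build part of that asymmetry in, since 20 UMIs is a higher CPM in the smaller set. The median log2 ratio over all 582 genes was 0.21, and 0.56 when the sets were scaled by TMM factors.

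The contractile genes differed little between the regions in the main scaling. None of 22 tested sarcomere genes passed 2-fold, with a median log2 ratio of 0.07 beside 0.21 over all genes. With TMM scaling the sarcomere median was 0.48 and 1 of 24 was higher. With equal weight for each barcode 1 of 23 was lower, and without the deepest barcodes 1 of 22. Myl7, Myh6 and Tnnt2 are genes of the rule, so their ratios are a description. Myl7 had 30172 CPM in the anterior and 21073 in the posterior set (ratio 1.43, exact 95% counting interval 1.33 to 1.55), and Nppa 27106 and 18928 (ratio 1.43, 1.32 to 1.55). Tnnt2 had 9896 and 8418 CPM (ratio 1.18, 1.04 to 1.33). Myh6 had 13732 and 16308 CPM (log2 -0.25), and its sign turned with TMM scaling (0.23) and with equal weight for each barcode (0.13). The Nppa difference rested on the deepest barcodes: without the deepest of each set its log2 ratio was -0.07.

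None of 13 calcium handling genes passed 2-fold (median -0.14, and 0.34 with TMM scaling), and none of 12 mitochondrially encoded genes did (median 0.27). Of 20 genes of fatty acid and energy metabolism 1 did, Acaa2, an enzyme of fatty acid oxidation, with 287 anterior and 688 posterior CPM (median of the list -0.23, and 0.16 with TMM scaling). Of 11 atrial identity genes 1 was higher, Myl1, with 882 and 397 CPM, and of 7 excitability genes 1, Gja1, with 217 and 106 CPM (ratio 2.05, 0.724 to 7.99). Of the 9 immediate early and stress genes 2 were higher and 1 lower. Jun, an immediate early transcription factor, had 41 anterior and 4 posterior UMIs (ratio 2.71, 0.981 to 10.4), so the intervals of Gja1 and Jun held 1. Fos had 48 and 40 UMIs (ratio 0.317, 0.204 to 0.495), but 25 of the 40 posterior UMIs lay in the Malat1-rich barcode, and without the Malat1-rich barcodes its log2 ratio was -0.79.

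Among the genes with the highest ratios, G0s2, an inhibitor of fat breakdown, had 31 anterior UMIs and 0 posterior UMIs, which is at least 2.73-fold higher with the 3-count limit over the posterior set. Raising the mitochondrial limit to 50% brought posterior UMIs in and gave a log2 ratio of 1.48. Mrpl23, a mitochondrial ribosomal protein, and Fbxl22, an F-box protein of the cardiac sarcomere, each had 34 UMIs and 1 UMI. All 4 tested haemoglobin genes were higher in the anterior set, where all but 3 of the 1224 haemoglobin UMIs lay in 3 barcodes.

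**Figure D5:**
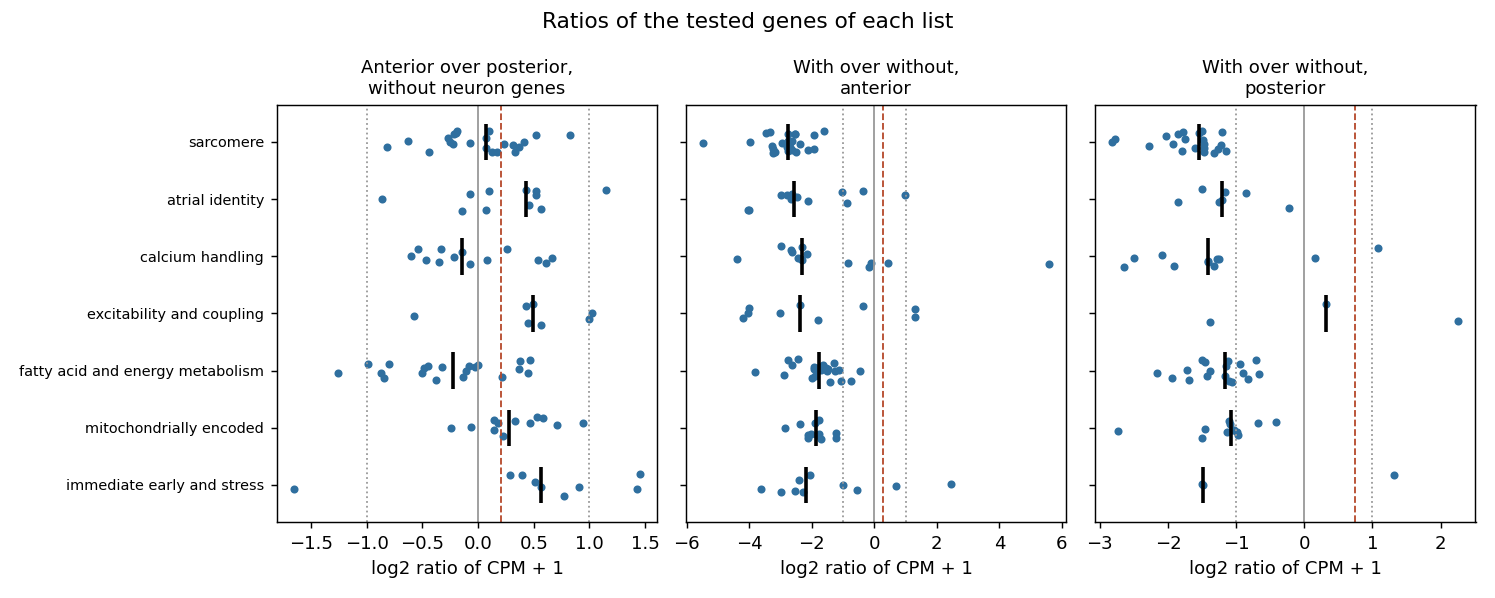
Log2 ratios of CPM plus 1 for the tested genes of 7 lists, anterior over posterior in barcodes without neuron genes, and with over without neuron genes in each library. Points are genes, short black bars list medians, the red dashed line the median of all tested genes and dotted lines 2-fold; the sarcomere medians are 0.07, -2.76 and -1.55 from left to right.

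Members with neuron genes had a lower share of every tested sarcomere gene than members without. Of 1193 genes tested in the anterior library 799 differed past 2-fold (67%), 478 higher (40.1%) and 321 lower (26.9%) with neuron genes. In the posterior library it was 392 of 664 (59%), 293 higher (44.1%) and 99 lower (14.9%). The sets were cut by 3 neuron genes, so higher neuron genes, and lower shares of the rest, follow in part from the rule, and these counts describe the sets only. The median log2 ratio of all genes was 0.28 for the anterior and 0.74 for the posterior sets. With TMM scaling the anterior median was -0.32, with 373 genes higher and 448 lower.

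All 25 tested sarcomere genes were past 2-fold lower in the anterior library and all 21 in the posterior, with medians of -2.76 and -1.55, and in the anterior library this held under every scaling tried. With equal weight for each barcode, 9 of the 21 were past 2-fold lower in the posterior library. Myl7 had 4329 CPM with and 30172 without neuron genes in the anterior library (log2 -2.80), and 9091 with and 21073 without in the posterior (log2 -1.21). Atp2a2 had 1527 with and 7699 without in the anterior library (log2 -2.33), and 1990 with and 8498 without in the posterior (log2 -2.09). Genes of atrial identity were lower in 9 of 12 and 5 of 7 tested (medians -2.55 and -1.21), and those of energy metabolism in 22 of 24 and 13 of 18 (medians -1.75 and -1.16). Mitochondrially encoded genes were lower in 12 of 12 and 8 of 12 (medians -1.86 and -1.07), beside median mitochondrial shares of 0.321% with and 8.59% without neuron genes in the anterior library and of 1.05% with and 0.886% without in the posterior.

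The ends of the ranking held neuronal and muscle genes beside genes of general function. In the anterior library Ngfr, the low-affinity neurotrophin receptor, had 68 UMIs with and 0 without neuron genes (at least 35.6-fold higher). Ddc, an enzyme of monoamine synthesis, had 43 and 0 (at least 22.5-fold), and L1cam, an axonal adhesion molecule, 33 and 0 (at least 17.3-fold). Itgb1bp2, the muscle chaperone melusin, had 0 UMIs with and 38 without (at least 8.07-fold lower), and Nexn, a Z-disc protein, 1 and 76 (log2 -5.47). In the posterior library Napb, a factor of synaptic vesicle fusion, had 51 UMIs with and 0 without (at least 8.64-fold higher). The 12 highest also held general genes such as Anxa5, Cox6a1 and Arf3. Chrna3, the nicotinic receptor subunit of autonomic neurons, was among the 12 highest, with 22 UMIs. The lowest was Mhrt, a long noncoding RNA, with 2 and 24 UMIs (log2 -4.51), followed among others by Myh6 (172 and 616), Ttn (125 and 437) and Ryr2 (20 and 64). Mhrt (chr14:54968678-54974349, plus strand) overlaps Myh7 on the opposite strand in the GENCODE vM21 annotation, and counts of the pair are uncertain where strand is not used.

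Within the neuron programme, the members with neuron genes differed in make-up from neuron barcodes of the same library. Per 100 UMIs of Snap25, Prph and Stmn2 together, Snap25, a synaptic vesicle fusion protein, gave 24.0 (95% counting interval 20.3 to 28.1) in anterior members and 11.3 in anterior neurons. In the posterior library it gave 26.4 (21.5 to 32.1) and 13.9, but 2 of the 18 members held 267 of their 386 UMIs of the 3 genes, and the other 16 gave 15.1 (8.96 to 23.9). The anterior value without the 2 richest barcodes was 24.8 (19.8 to 30.6). On the same scale Tubb3, a neuronal tubulin, gave 48.0 and 27.3 for the anterior library, and 58.3 and 27.2 for the posterior. Uchl1, a neuronal ubiquitin hydrolase, gave 43.5 and 24.8, and 48.4 and 28.3. Without the 2 richest posterior barcodes Tubb3 gave 58.8 (45.9 to 74.3) and Uchl1 50.4 (38.5 to 64.9). Stmn2 gave 45.6 in members and 55.9 in neurons of the anterior library, and 47.9 and 53.4 in the posterior. Members without neuron genes had only 37 anterior and 15 posterior UMIs of the 3 genes. They gave 56.8 and 60 for Tubb3, 56.8 and 100 for Uchl1, and 16.2 and 26.7 for Snap25. The high Tubb3 and Uchl1 values were thus not particular to the set with neuron genes. The sums were not matched for depth.

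Transmitter genes were compared on the same scale, members with neuron genes against neurons. Npy gave 30.5 in anterior members and 44.1 in anterior neurons, but 38.9 and 32.3 in the posterior library, so its direction differed between libraries, and that difference was not tested. Cartpt, a neuropeptide precursor, gave 33.6 and 28.7 in the anterior library, and 31.3 and 21.1 in the posterior, where 90 of its 121 UMIs in members lay in 1 barcode. Th, which starts the synthesis of catecholamines, gave 1.87 and 0.871 for the anterior library, and 6.74 (4.4 to 9.87) and 0.879 for the posterior. Of the 26 posterior Th UMIs, 25 lay in 1 barcode, and without the 2 richest barcodes the value was 0.840. Dbh, which makes noradrenaline, gave 0 (upper limit 0.575) in anterior members and 0.685 in anterior neurons, and 2.33 and 1.43 in the posterior library. Chat, which makes acetylcholine, gave 0.779 and 0.360, and 0.777 and 0.478, from 5 and 3 UMIs in members. Nos1, a nitric oxide synthase, had no UMI in members with neuron genes (upper limits 0.575 anterior and 0.956 posterior), with 0.742 and 0.464 in neurons. The posterior neuron value thus lay below the limit of the members.

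Cardiac genes were also set per 100 UMIs of Myl7 and Myh6, with and without neuron genes. In the anterior sets Myh6 gave 31.8 with and 31.3 without, Tnnt2 27.0 and 22.5, Ttn 19.4 and 21.8, and Nppa 76.6 and 61.7. Of the 443 Nppa UMIs in the anterior barcodes with neuron genes, 272 lay in 1 barcode. Without the 2 barcodes of each set that held most Myl7 and Myh6 UMIs, a choice made after the values were seen, Nppa gave 49.4 with and 71.7 without, the other way round. In the posterior sets Myh6 gave 20.3 (17.4 to 23.6) with and 43.6 without, Ttn 14.7 (12.3 to 17.6) and 30.9, and Nppa 74.1 and 50.6. Without the same kind of 2 barcodes, Myh6 gave 25.7 (21.3 to 30.8) with and 33.0 (29.1 to 37.4) without. Ttn gave 25.7 (21.3 to 30.8) and 24.6 (21.2 to 28.4), and Nppa 91.5 (83.0 to 100.7) and 80.6 (74.4 to 87.2). Each pair of intervals overlapped. The posterior Ttn difference thus rested on the barcodes left out. Those of Myh6 and Nppa kept their direction but were smaller.

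Other cell classes picked by gates of the same form held the neuron genes at other rates. Of satellite glia barcodes, the cells that wrap these neurons, 48 of 135 anterior (35.6%) and 57 of 169 posterior (33.7%) held them, and of fibroblast barcodes 7 of 95 (7.37%) and 2 of 189 (1.06%). Endothelial barcodes lay between, with 2 of 12 (16.7%) and 4 of 18 (22.2%). The anterior cardiomyocyte share of 34.1% stood beside that of the glia. The posterior share of 58.1% was above that of the glia, with intervals that overlapped in part (39.1 to 75.5 against 26.6 to 41.4). In the mixed library 157 of 225 glia barcodes (69.8%) held the neuron genes, at a median depth of 43225 UMIs. Anterior and posterior median depths were 3783.5 and 1691 UMIs for cardiomyocyte barcodes, 5279 and 7025 for glia and 4569 and 6809 for fibroblasts. The shares were not matched for depth. Conversely, 5 anterior and 2 posterior neuron barcodes passed the Myl7 and Myh6 level with fewer than 5 of the 7 markers, and none of the mixed neurons did. No doublet caller was run, and the number of cells behind a barcode was not tested.

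The sorted label could be read in the mixed matrix only, which lists eGFP as a feature. None of 17 mixed cardiomyocyte barcodes, counted with no mitochondrial limit, had an eGFP UMI, which allows a share of barcodes with such a UMI of up to 17.6% by a limit of 3 counts (exact upper bound 19.5%). In the same library 295 of 2045 neuron barcodes had one (14.4%, 12.93 to 16.02) and 0 of 89 fibroblast barcodes did, which allows up to 3.37% by the same limit (exact upper bound 4.06%). Their median depths were 7234 UMIs for cardiomyocyte, 56660 for neuron and 4600 for fibroblast barcodes, so these limits bear on barcodes with an eGFP UMI and not on cells that carry the label.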

How the data were processed

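Deposited 10x matrices of whole-number UMI counts per gene and barcode were used. The anterior and posterior matrices were made with Cell Ranger 6.1.2 and the mixed one with 3.1.0, per the file headers, while the submitters' processing notes name Cell Ranger 7.1.0, Seurat 4.4.2 and mm10. The labels give the mixed sample no section; its group was inferred from the other titles and the design text. Barcodes were filtered as stated in the report. No doublets were called or removed. UMIs were summed per set and library with Python 3.11.15, numpy 2.4.6, pandas 2.3.3 and scipy 1.17.1. CPM, log2 ratios with 1 CPM added and exact Poisson or Clopper-Pearson 95% intervals were computed and checked on simulated data. TMM factors came from edgeR 4.0.16 in R 4.3.3.

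A UMI counts a transcript at its 3′ end, so values are not divided by length. Gene positions are those of GENCODE vM21. The members and gene lists were chosen with earlier results of these data known. Genes named were the 4 markers, the 20 leading genes per library, the 12 highest and 12 lowest per comparison and the highest 6 of each list, with list members past 2-fold. The remaining list members named, such as Dkk3, Kcnj5, Hand2 and Gdnf, were chosen after their values were seen. Alternatives varied the barcode limits, the added CPM, the minimum CPM, the scaling and the weight of barcodes. Some genes of the lists are not reported here.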

Additional observations from a re-analysis of the deposited data

Results flagged for a closer look

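Barcodes that met every rule for cardiomyocytes except the mitochondrial limit numbered 6 (anterior), 13 (posterior) and 16 (mixed), and no comparison of the report uses them. Most carried Myl7. Summed per 10000 UMIs, the anterior barcodes had 209 Myl7 and 281 Nppa, the posterior ones 190 and 252, and the mixed ones 201 and 368. An Nppa UMI was present in 4 of the 6, 12 of the 13 and 11 of the 16. None held the neuron genes, with at most 16.9 UMIs per 10000. Of the 17 mixed barcodes that met the other rules, 16 thus lay above the limit. Among them, 2 had no UMI of Myl7, Myl4, Nppa or Sln but 24 and 11 UMIs of Myh7, a myosin heavy chain of the ventricle and of slow muscle, and the first of these had 48 Myl2 and 43 Myl3 UMIs. Another 3 held Bmp10, at 21, 5 and 1 UMIs. Neither Myl2 nor Bmp10 was found in the members below the limit.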

How the results depend on the processing

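No paired analysis was possible because each region has 1 library and the labels pair no samples. Cardiomyocyte barcodes numbered 27 in the anterior library with mitochondrial UMIs at most 10% and 12 in the posterior with at least 2000 UMIs. In the mixed library they numbered 0 with at most 10% mitochondrial UMIs, 12 with at most 50%, 17 with no limit (chosen after seeing the data) and 2 with 3 or more markers. Barcodes with neuron genes numbered 7 in the anterior library with Myl7 and Myh6 at 100 or more per 10000, and 11 in the posterior. The posterior count was 7 with neuron genes at 40 or more and 6 with at least 2000 UMIs.

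Between regions, the anterior-higher count of 72 was 43 at 200 CPM or more, 164 with TMM scaling and 47 with Myl7 and Myh6 at 100 or more. Chosen after seeing the data, it was 115 in barcodes with at least 2% mitochondrial UMIs and 3 at 1000 CPM or more. The lower count of 8 was 1 with TMM scaling, 15 with equal weight for barcodes and 2 at 1000 CPM or more. Without the deepest barcode of each set (chosen after seeing the data), genes higher with neuron genes numbered 288 in the anterior library, and 141 higher and 58 lower in the posterior. With equal weight, 54 posterior genes were lower. The anterior sarcomere median was -3.34 with TMM scaling, -2.19 with equal weight and -2.37 without the deepest barcodes, and the posterior one was -0.89 with equal weight. The cause was not tested.

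Of the named genes' alternative values, 744 stayed within the counting interval of the reported ratio, 58 moved outside it, and 2 of genes past 2-fold changed sign. Smaller ratios could also change sign, as those of Myh6 and Nppa between regions did. Angpt1 had a log2 ratio between regions of 2.50, and -0.037 with mitochondrial UMIs at most 50%. AY036118 had -1.27, and 1.05 in barcodes with at least 2% mitochondrial UMIs. The other alternatives left counts within 1.5 times. Region, age and library cannot be told apart, and differences in genes of few UMIs were not detectable at this depth.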
